A study of Homo sapiens with 4 samples.

Results

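The 8 genes that encode the beta subunits of integrins, ITGB1 to ITGB8, were followed in AGS cells, a line established from a human gastric adenocarcinoma. They were taken by gene name, 8 of the 47251 genes listed, together with the 96 transcripts listed under these names among 180500. The study asked which genes change when MFAP2, a protein of extracellular microfibrils, is silenced. The RNA-seq data comprise 2 libraries of AGS cells with the shRNA sh-MFAP2 and 2 control libraries of the same line with a negative control shRNA. The study's methods describe lentiviral infection and a stably silenced line, both sh-MFAP2 libraries carry the same shRNA, and nothing says that the libraries of a group came from separate cultures, so that a p-value measures the spread between these libraries, which may be technical. Values are FPKM, fragments scaled by length and by the depth of the library. Gene and transcript values rest on different lengths, so that they are not on the same scale. Changes are differences of log2(FPKM + 1), sh-MFAP2 minus control, with 95% intervals from limma.

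Integrins are the main receptors that hold a cell to the extracellular matrix. Each is a pair of 1 alpha and 1 beta chain: the outer parts of both chains bind the ligand, and the short inner tail of the beta chain binds talin, kindlin and filamin, which connect the receptor to actin. Beta 1 pairs with most alpha chains and makes receptors for fibronectin, collagen and laminin. Beta 4 pairs with alpha 6 in hemidesmosomes of epithelial cells, beta 5, beta 6 and beta 8 pair with alpha V, beta 2 and beta 7 belong to leukocytes, and beta 3 is best known from platelets.

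ITGB1 was the highest of the 8 genes, and its values in the sh-MFAP2 libraries lay below those of both controls. Of the others, ITGB6 was also lower in both sh-MFAP2 libraries, ITGB4 and ITGB5 overlapped between the groups, and ITGB8, ITGB2, ITGB7 and ITGB3 were all under 1 FPKM in every library. No member passed the thresholds of a call, p under 0.01 and adjusted p under 0.05 in limma, which 0.273% of the 9873 genes tested passed. At an unadjusted p under 0.05 there were 2 members of the 4 tested, ITGB1 and ITGB6, both lower, against 8.41% of all genes tested that were lower at that p. Which members were under that p changed when single libraries were left out. In those fits the log2 fold change ran from -0.67 to -0.53 for ITGB1 and from -0.57 to -0.385 for ITGB6. That of ITGB4 ran from 0.03 to 0.39, higher with sh-MFAP2.

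**Figure D1:**
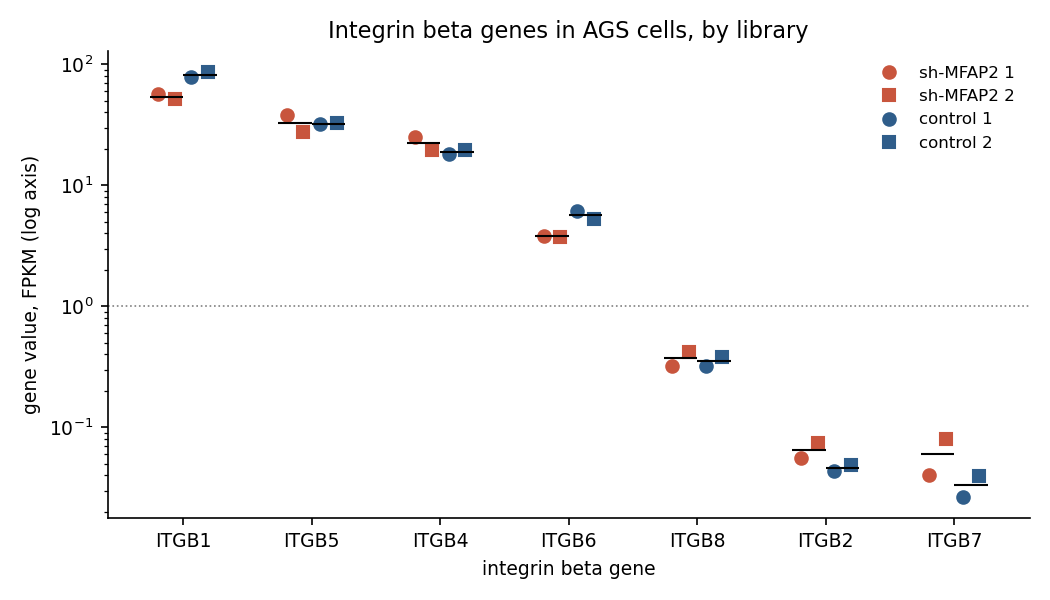
Gene values of 7 integrin beta genes in FPKM on a log axis, with 1 point per library (circles are replicate 1, squares replicate 2; red is sh-MFAP2, blue is control), the mean of each group as a black line and the filter of 1 FPKM as a dotted line. ITGB3, listed at 0 in all 4 libraries, cannot be drawn on this axis, and ITGB1 is the only gene here above 50 FPKM in every library.

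The order of the mean levels was ITGB1, ITGB5, ITGB4, ITGB6, ITGB8, ITGB2, ITGB7 and ITGB3. Of the 7 pairs of neighbours in this order, 6 had ranges that did not overlap over the 4 libraries, so that their order was the same in all 4. ITGB2 and ITGB7 overlapped, and ITGB2 was the higher in 3 of 4 libraries. The step from ITGB6, at least 3.76 FPKM, to ITGB8, at most 0.421 FPKM, divided the 4 members tested from the 4 that were not. EPCAM and the keratins KRT8, KRT18 and KRT19, markers of simple epithelium, were at 192.9 FPKM or more in every library, whereas CDH1, which encodes E-cadherin, was at 0.584 to 1.25 FPKM and CLDN4, a claudin, was at 47.1 FPKM in sh-MFAP2 replicate 1 and at most 0.551 FPKM elsewhere. The 4 platelet markers summed to 0.143 to 0.205 FPKM, with GP9 and PF4 listed at 0 throughout.

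ITGB1 is on the minus strand of GRCh38 at chr10:32900319-33005792 (GENCODE 29). The sh-MFAP2 replicates 1 and 2 measured 56.6 and 51.2 FPKM, and the control replicates 1 and 2 measured 78.1 and 86.4 FPKM. The groups did not overlap: the mean was 53.9 ± 3.84 FPKM (SD, n = 2) in sh-MFAP2 and 82.3 ± 5.81 FPKM (SD, n = 2) in control, a difference of -34.5%. Within each group the higher library exceeded the lower by a factor of 1.11 at most. The log2 fold change was -0.60 with an SE of 0.124 (limma adjusted p = 0.330) and an interval of -0.95 to -0.25. The same separation, sh-MFAP2 lower, was found for 31.4% of all genes tested. The median over all genes tested was -0.05. In RNA of whole cultures, fewer cells with a transcript and less of it in each cell cannot be told apart.

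2 transcripts carried ITGB1. ITGB1-201 (ENST00000302278) made up 83.9% to 91.3% of the summed transcript FPKM of ITGB1 and ITGB1-202 (ENST00000396033) made up 6.39% to 13.1%, whereas the 16 other listed transcripts together made up 1.64% to 3.06%. Both have 16 exons and the same coding sequence of 2397 bases. They differ outside it, in a noncoding first exon of 65 bases in ITGB1-201 and of 136 bases in ITGB1-202, and in the length of the last exon, 1244 against 1317 bases. Another coding form, ITGB1-205 (ENST00000423113), holds an additional exon of 81 bases between the exons that the others join, at chr10:32907063-32907143. It is the form of the striated muscle chain beta 1D. The junctions below are shown because they are where the coding sequences of the inner tail part, with the exon upstream in lower case and the exon downstream in capitals, all on the minus strand.
ITGB1-201 and ITGB1-202, exon 15 to exon 16: gccaaatgggacacgGGTGAAAATCCTATT
ITGB1-205, exon 14 to exon 15: gccaaatgggacacgCAAGAAAATCCGATT

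Gene values of ITGB1 imply a length of about 6011 bases, against 3640 for ITGB1-201, so that gene and transcript FPKM differ in scale. ITGB1-201 measured 86.2 and 74.8 FPKM with sh-MFAP2 against 119.6 and 121.4 FPKM in the controls. It had the direction of the gene with groups that did not overlap, a log2 fold change of -0.58 (SE 0.160, limma adjusted p = 0.596). Of the 22312 transcripts tested, 0.0% passed both thresholds in limma and 24.9% were lower in both sh-MFAP2 libraries than in both controls. At an unadjusted p under 0.05 were 2 of the 9 member transcripts tested, ITGB1-201 and ITGB6-201, both lower, against 4.41% of all transcripts tested that were lower at that p. ITGB1-202 measured 6.70 and 8.97 FPKM with sh-MFAP2 against 8.44 and 18.9 FPKM in the controls. Its groups overlapped, control replicate 2 standing above the 3 other libraries, and its log2 fold change of -0.65 (SE 0.449, limma adjusted p = 0.726) was -0.11 without that library. ITGB1-205 measured 0 and 0.0144 FPKM with sh-MFAP2 against 0.00610 and 1.04 FPKM in the controls. These are transcript estimates, and no reads over the junction itself were counted here.

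The shares of the 2 main ITGB1 transcripts overlapped between the groups. The share of ITGB1-201 was 91.3% and 87.0% in sh-MFAP2 and 90.6% and 83.9% in control, and the difference of the means was 1.89 percentage points (two-sided exact permutation p = 0.667, where 0.33 is the smallest p that 2 against 2 libraries allow). That difference turned with single libraries, being 5.26 without control replicate 1, 4.05 without sh-MFAP2 replicate 2, -1.47 without control replicate 2 and -0.255 without sh-MFAP2 replicate 1. The 16 other transcripts together made up 1.64% and 2.59% with sh-MFAP2 against 3.003% and 3.055% in the controls, which did not overlap. Among all 18, the share was lower in both sh-MFAP2 libraries for 3 transcripts and higher for 1, each under 1% of ITGB1. Of the transcripts at a mean of at least 1 FPKM compared within a gene, 36.5% had shares that did not overlap between the groups. Over all 18 listed transcripts, 7 were lower in both sh-MFAP2 libraries than in both controls and 0 were higher in both, where 18.3% and 13.5% of all transcripts above 0 in a library did so. The 18 are estimates for 1 gene that was itself lower, so that this count is not separate from the difference of the gene.

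The study reported ITGB1 as lower after MFAP2 silencing in its sequencing, by quantitative PCR and, for the protein, by western blotting. Its primers for the quantitative PCR are shown here because they decide which transcripts that assay reads.
Forward primer, exon 2, chr10:32935500-32935521, minus strand: gttcagtttgctgtgtgtttgc
Reverse primer, exon 4, chr10:32929868-32929889, plus strand: atcctctggcttgagcttctct

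Both primers lie in coding sequence upstream of the junctions above. They matched 10 of the 18 listed transcripts without a mismatch, ITGB1-201, ITGB1-202 and ITGB1-205 among them, with a product of 293 bases in these. The matched transcripts summed to 93.6 and 84.4 FPKM with sh-MFAP2 and to 129.6 and 142.4 FPKM in the controls, 98.1% to 99.1% of all ITGB1 transcript FPKM. The primer pair therefore reads nearly the whole of the listed ITGB1 signal and does not tell its forms apart. The log2 difference of the sums was -0.61 (two-sided exact permutation p = 0.33, the smallest possible).

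A processed pseudogene, ITGB1P1, holds a stretch of ITGB1 without introns. Its transcript ITGB1P1-001 (ENST00000596032, chr19:14621634-14622242) is 609 bases long and was identical over its whole length to positions 1851 to 2459 of ITGB1-201, from exon 13 into exon 16, 16.7% of that transcript. Control replicate 2 listed it at 54.7 FPKM, and the 3 other libraries listed it at 0. Of 10280 processed pseudogene transcripts listed, 41 reached 10 FPKM in a library. Of these, 17 were listed at 0 in 1 to 3 libraries. These included 4, ITGB1P1 among them, that were listed at 0 in the 3 others. On the depth inferred from the steps between low values, the value corresponds to about 2487 reads, 6.42% of the 38730 behind ITGB1 in that library. How reads from identical sequence were divided is not given in the sources used here, so that the part of ITGB1P1 in the values of ITGB1 cannot be told apart. With ITGB1P1 scaled to the length of ITGB1 and added, control replicate 2 went from 86.4 to 91.9 FPKM, the 3 other libraries kept their values, and the log2 fold change was -0.65 (limma adjusted p = 0.337). Control replicate 2 was also the library with the highest ITGB1-202 and ITGB1-205.

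**Figure D2:**
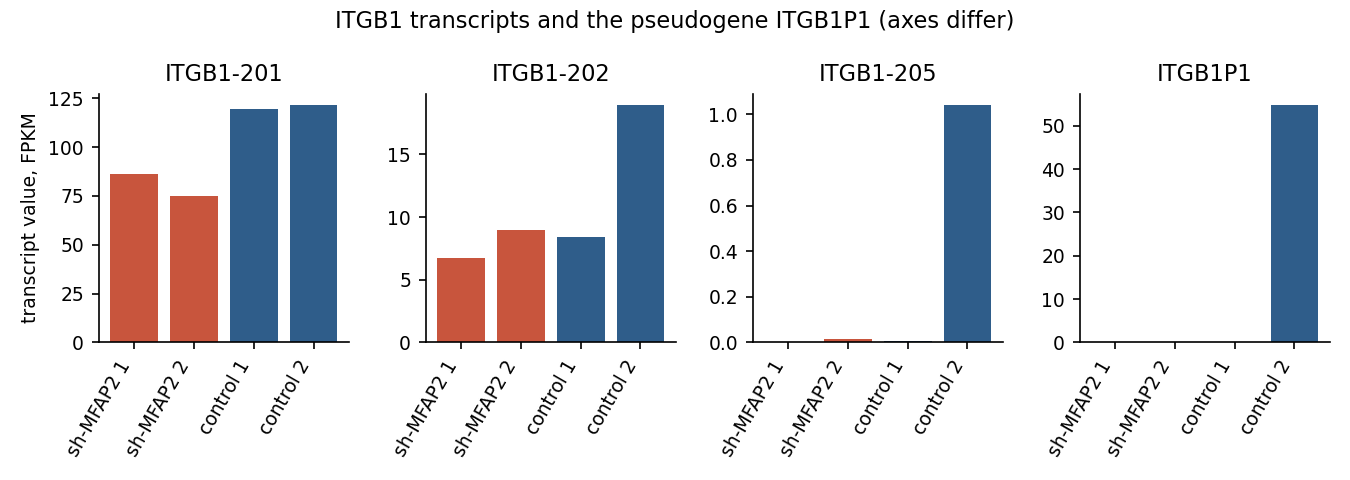
FPKM of ITGB1-201, ITGB1-202, ITGB1-205 and the pseudogene transcript ITGB1P1-001, with 1 bar per library (red is sh-MFAP2, blue is control) and a separate axis from 0 in each panel. ITGB1-201 is lower in both sh-MFAP2 bars than in both control bars, whereas the 3 other panels are led by control replicate 2.

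ITGB6, whose product binds the latent form of TGF-beta with alpha V, is on the minus strand at chr2:160099666-160200313. It measured 3.83 and 3.76 FPKM with sh-MFAP2 against 6.11 and 5.27 FPKM in the controls. The groups did not overlap, and the mean of sh-MFAP2 differed from that of control by -33.2%. The log2 fold change was -0.48 with an SE of 0.117 and an interval of -0.81 to -0.14 (limma adjusted p = 0.352). Its main transcript ITGB6-201 (ENST00000283249), 66.4% to 76.7% of the ITGB6 sum, measured 4.06 and 3.94 FPKM with sh-MFAP2 against 6.53 and 6.12 FPKM in the controls, a log2 fold change of -0.55 (limma adjusted p = 0.618). The shorter coding transcript ITGB6-205 measured 0.329 and 1.497 FPKM with sh-MFAP2 against 0.991 and 1.18 FPKM in the controls, and ITGB6-204 was at 0.684, 0.264, 0.940 and 0.347 FPKM in the same order. Those 2 overlapped between the groups, and the sh-MFAP2 libraries differed most from each other in ITGB6-205.

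ITGB5, the chain of the vitronectin receptor alpha V beta 5, is on the minus strand at chr3:124761948-124901418. It measured 38.1 and 27.3 FPKM with sh-MFAP2 against 32.1 and 32.5 FPKM in the controls. The controls lay between the sh-MFAP2 libraries, which differed from each other by a factor of 1.40, against 1.01 for the controls. The log2 fold change was 0.00 with an SE of 0.197, and the interval of -0.56 to 0.56 covers changes as large as that of ITGB6 in either direction (limma adjusted p = 1.00). It was -0.23 without sh-MFAP2 replicate 1 and 0.23 without sh-MFAP2 replicate 2. ITGB5-201 (ENST00000296181) carried 87.7% to 90.9% of the ITGB5 sum, at 53.0, 37.8, 44.5 and 44.8 FPKM in the same order of libraries. ITGB5-207 and ITGB5-210 followed with means of 2.48 and 1.14 FPKM, with log2 fold changes of 0.11 and -0.22.

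ITGB4, with its long inner tail that binds plectin in hemidesmosomes, is on the plus strand at chr17:75721328-75757818. It measured 25.2 and 19.4 FPKM with sh-MFAP2 against 18.2 and 19.7 FPKM in the controls, with groups that overlapped because sh-MFAP2 replicate 2 lay between the controls. The log2 fold change was 0.21 with an SE of 0.168 and an interval of -0.26 to 0.69 (limma adjusted p = 0.607). It was 0.03 without sh-MFAP2 replicate 1.

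**Figure D3:**
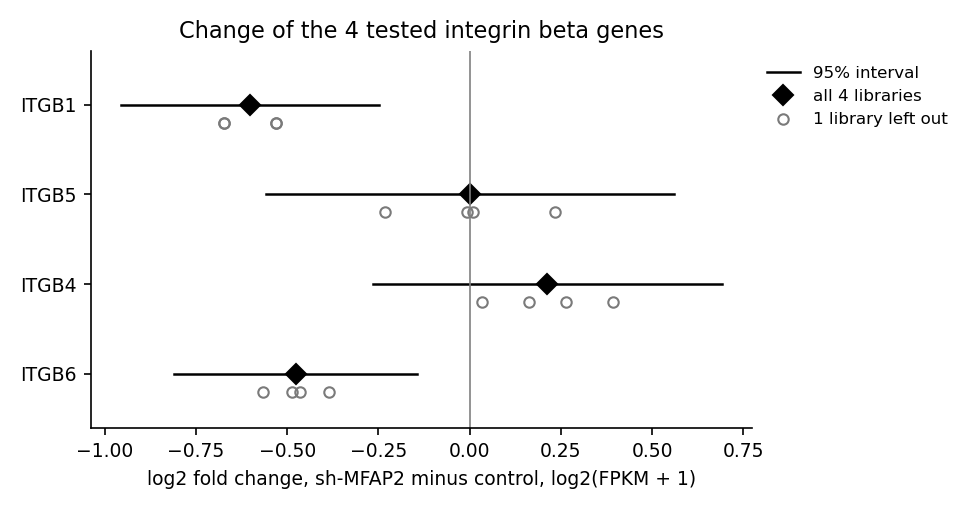
Log2 fold change of the 4 integrin beta genes above the filter, sh-MFAP2 minus control on log2(FPKM + 1), with all 4 libraries (diamond), the 95% interval from limma (line) and the values with each library left out in turn (circles). ITGB1 and ITGB6 lie below 0 in each of these fits, ITGB4 lies above 0, and ITGB5 lies on both sides.

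3 transcripts carried most of ITGB4. ITGB4-206 (ENST00000579662) and ITGB4-203 (ENST00000450894) have the same coding sequence of 5259 bases and differ in the first exon and in the last exon, of 189 against 400 bases. ITGB4-201 (ENST00000200181) holds an additional coding exon of 210 bases at chr17:75753765-75753974. The junctions of this exon's upstream neighbour are shown because they separate the forms, with the upstream exon 32 in lower case and exon 33 in capitals, on the plus strand.
ITGB4-201: tctccgatgacactgGCTGCGGCTGGAAGT
ITGB4-203 and ITGB4-206: tctccgatgacactgAGCACCTGGTGAATG

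ITGB4-206 measured 18.7 and 12.9 FPKM with sh-MFAP2 against 10.6 and 9.19 FPKM in the controls, a log2 fold change of 0.61 (SE 0.253, limma adjusted p = 0.677). The 2 sh-MFAP2 values exceeded the 2 control values, as for 17.8% of all transcripts tested, and the log2 fold change was 0.36 without sh-MFAP2 replicate 1. ITGB4-203 measured 9.74 and 8.31 FPKM with sh-MFAP2 against 9.30 and 11.8 FPKM in the controls, with a log2 fold change of -0.20 (limma adjusted p = 0.778). The form with the additional exon, ITGB4-201, measured 1.79 and 1.95 FPKM with sh-MFAP2 against 1.75 and 2.32 FPKM in the controls, 5.73% to 9.39% of the ITGB4 sum. ITGB4-206 made up 59.8% and 52.6% of the ITGB4 sum in sh-MFAP2 and 44.8% and 37.2% in control, and ITGB4-203 made up 31.2% and 34.0% against 39.5% and 47.7%. The groups did not overlap for either share (two-sided exact permutation p = 0.33, the smallest possible). Shares did not overlap between the groups for 36.5% of the transcripts compared within a gene. The 2 transcripts share their coding sequence, so that the split rests on their first exons and on the end of the last.

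ITGB1 therefore made up a smaller part of the summed integrin beta FPKM in sh-MFAP2. Summed over the 8 genes, the sh-MFAP2 libraries held 124.2 and 102.2 FPKM and the controls 135.0 and 144.3 FPKM. ITGB1 was 45.6% and 50.0% of it in sh-MFAP2 and 57.9% and 59.9% in control. ITGB5 was 30.7% and 26.7% against 23.8% and 22.5%, and ITGB4 was 20.3% and 19.0% against 13.5% and 13.6%. These shares move against each other, since they add to the whole, and each had a two-sided exact permutation p of 0.33. The share of ITGB6 overlapped between the groups, at 3.09% and 3.68% against 4.53% and 3.65%. With transcript sums in place of the gene values, ITGB1 was 49.4% and 53.5% against 61.3% and 63.0%.

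**Figure D4:**
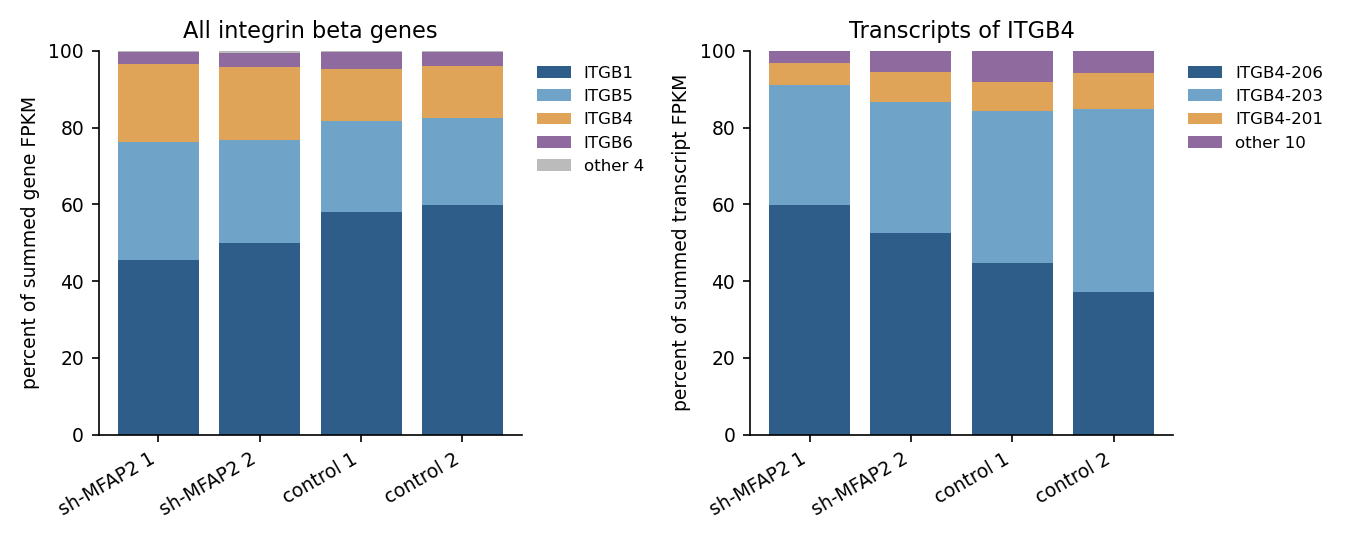
Left, the percent of the summed FPKM of the 8 integrin beta genes taken by each gene in each library; right, the percent of the summed FPKM of ITGB4 transcripts taken by each transcript. The ITGB1 part is 45.6% and 50.0% in sh-MFAP2 and 57.9% and 59.9% in control, and the ITGB4-206 part is 59.8% and 52.6% in sh-MFAP2 and 44.8% and 37.2% in control.

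The other 4 members were near or at the floor. ITGB8, which with alpha V also binds latent TGF-beta, measured 0.321 and 0.421 FPKM with sh-MFAP2 against 0.323 and 0.384 FPKM in the controls, with groups that overlapped. Most of it was ITGB8-201, except in sh-MFAP2 replicate 1, where the retained-intron transcript ITGB8-204 was listed at 0.434 FPKM beside 0.429 FPKM of ITGB8-201, against at most 0.00155 FPKM of ITGB8-204 elsewhere. ITGB2, the common beta chain of the leukocyte integrins, measured 0.0559 and 0.0741 FPKM with sh-MFAP2 against 0.0436 and 0.0487 FPKM in the controls, or 17.5 to 27.5 inferred reads. ITGB7, the beta chain of the gut-homing integrin, measured 0.0402 and 0.0793 FPKM with sh-MFAP2 against 0.0268 and 0.0396 FPKM in the controls, or 7.07 to 19.4 inferred reads. Both were higher in both sh-MFAP2 libraries at levels of few reads, as were 16.0% of all genes above 0 in a library, and for ITGB7 the nearest values of the groups were 0.0402 and 0.0396 FPKM. The transcript sums of ITGB2 overlapped between the groups, at 0.408 and 0.310 FPKM with sh-MFAP2 against 0.173 and 0.394 FPKM in the controls. Those of ITGB7 did not overlap. The leukocyte markers summed to 3.50 and 2.69 FPKM with sh-MFAP2 against 2.36 and 1.46 FPKM in the controls, most of it LCP1, an actin-bundling protein that carcinoma cells can also express, while PTPRC was at 0.00405 to 0.0175 FPKM. Their part in ITGB2 and ITGB7 was not tested. With no filter on low values, ITGB8, ITGB2 and ITGB7 had limma adjusted p-values of 0.939, 0.728 and 0.732. ITGB3 and its 2 transcripts were listed at 0 in all 4 libraries, as was the kinase gene FYN. ITGB2 shares exon bases with the antisense gene ITGB2-AS1, listed at 0.537, 0.00995, 0.427 and 0.529 FPKM, and ITGB7 shares 409 exon bases with ZNF740 on the other strand, at 2.40 to 3.18 FPKM. ITGB8 shares 98 exon bases with the antisense gene AC004130.1, listed at 0.392 to 0.592 FPKM, above ITGB8 in each library. Whether counting used strand is not given in the sources used here, so that reads of these pairs cannot be told apart.

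The genes around the beta chains showed no call in limma either, in any of the 5 lists of the integrin network, against the 0.273% of all genes tested. Of 18 alpha chains, 7 were above the filter, 6 with a lower and 1 with a higher mean, with a median log2 fold change of -0.14 beside -0.05 over all genes tested. That median was -0.03 without sh-MFAP2 replicate 2, -0.28 without sh-MFAP2 replicate 1, -0.25 without control replicate 1, -0.27 without control replicate 2 and -0.79 over the alpha chains at a mean of at least 5 FPKM. ITGAV, the partner of beta 5, beta 6 and beta 8, measured 4.71 and 22.8 FPKM with sh-MFAP2 against 33.6 and 33.1 FPKM in the controls. Its log2 fold change of -1.56 had an interval of -3.71 to 0.59 (limma adjusted p = 0.473), since the sh-MFAP2 libraries were far apart. ITGA7, the laminin-binding alpha chain best known from muscle, had the highest change of the list, 0.10. ITGA6, a partner of both beta 1 and beta 4 that was chosen after its values were seen, measured 27.5 and 20.4 FPKM with sh-MFAP2 against 38.8 and 45.0 FPKM in the controls (log2 fold change -0.79, limma adjusted p = 0.352). The groups of ITGA6 and of ITGAV did not overlap, with sh-MFAP2 lower, as for 31.4% of all genes tested.

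Among 26 genes whose products bind or regulate the beta tail, 19 were tested, 11 lower and 8 higher, with a median of -0.06, which ranged from -0.14 without sh-MFAP2 replicate 1 to -0.01 without sh-MFAP2 replicate 2. TNS4, a tensin that binds the beta 1 tail, measured 54.9 and 59.6 FPKM with sh-MFAP2 against 81.9 and 88.4 FPKM in the controls (log2 fold change -0.56, limma adjusted p = 0.330). RACK1, a ribosomal scaffold protein that binds beta 1 and is named GNB2L1 in the table, measured 79.9 and 104.3 FPKM with sh-MFAP2 against 47.9 and 60.5 FPKM (0.75, limma adjusted p = 0.379). Both had groups that did not overlap, in opposite directions. The lower direction without overlap held for 6 of the 19 and the higher for 2, where 31.4% and 17.5% of all genes tested did so.

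In the complex of ILK, PINCH and parvin, which connects beta tails to actin, 5 of 7 genes were tested with a median of -0.32. RSU1, the partner of PINCH, measured 8.61 and 9.57 FPKM with sh-MFAP2 against 17.8 and 16.6 FPKM in the controls, a log2 fold change of -0.85 (limma adjusted p = 0.210). PARVB, beta-parvin, had the highest change at 0.20. Leaving out either sh-MFAP2 replicate 2 or control replicate 2 brought the median to -0.02. Of 14 kinases and adaptors of adhesions, 11 were tested with a median of -0.26 and values from -0.65 for YES1, a Src-family kinase, to 0.14 for PTK2B, the kinase related to FAK. YES1 measured 32.0 and 12.1 FPKM with sh-MFAP2 against 46.2 and 21.6 FPKM in the controls, so that libraries of 1 group differed by more than the groups did. The median of these 11 was -0.08 without sh-MFAP2 replicate 1.

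Of 26 ligands of beta integrins, 14 were tested, 6 lower and 8 higher, with a median of 0.02. COL1A1, a chain of type I collagen, measured 2.27 and 2.07 FPKM with sh-MFAP2 against 4.36 and 4.92 FPKM in the controls (log2 fold change -0.83, limma adjusted p = 0.221). The fibroblast markers COL1A2, COL3A1, DCN, LUM and PDGFRB were each at or under 0.0656 FPKM in every library. FGB, the beta chain of fibrinogen, measured 41.4 and 31.3 FPKM with sh-MFAP2 against 16.6 and 13.2 FPKM in the controls (1.23, limma adjusted p = 0.283). Fibronectin, the ligand of alpha 5 beta 1, was encoded by FN1 at only 0.0181 to 0.0348 FPKM. The median of the ligands was -0.23 without sh-MFAP2 replicate 1 and 0.26 without sh-MFAP2 replicate 2.

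**Figure D5:**
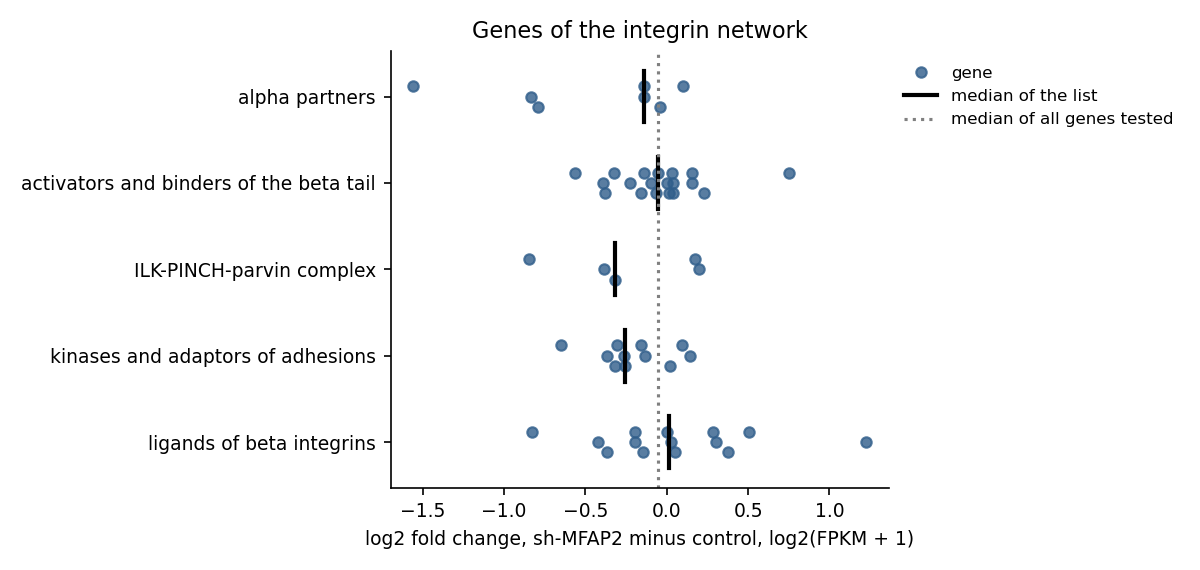
Log2 fold change of each tested gene in 5 lists of the integrin network, sh-MFAP2 minus control on log2(FPKM + 1), with the median of each list (black bar) and of all 9873 genes tested (dotted line, -0.05). The points of each list lie on both sides of 0, and the list medians run from -0.32 for the ILK complex to 0.02 for the ligands.

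The 3 genes whose profile over the 4 libraries lay nearest to that of ITGB1, by the Euclidean distance of centred log2(FPKM + 1) among 9872 others, were SLCO2A1, DDX6 and MTPN, with distances of 0.0331, 0.0489 and 0.0558. SLCO2A1, a prostaglandin transporter, measured 2.85 and 2.41 FPKM with sh-MFAP2 against 4.29 and 4.70 FPKM in the controls. DDX6, an RNA helicase of processing bodies, measured 4.30 and 3.82 FPKM against 6.55 and 6.97 FPKM. MTPN, myotrophin, measured 1.39 and 1.29 FPKM against 2.33 and 2.71 FPKM. The scale of log2(FPKM + 1) understates changes of low genes such as these 3, so that a small distance does not mean the same relative change as ITGB1. Of the members, ITGB6 was nearest to ITGB1 with a distance of 0.275 and rank 342, whereas ITGB5 and ITGB4 had ranks 4715 and 7047. With 4 libraries, likeness of profiles is a description of these libraries.

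For MFAP2 the sh-MFAP2 libraries listed 0 and the controls 0.0116 and 0.0138 FPKM, at most 3 inferred reads, so that the silencing could not be checked in these values. The depth inferred from the steps between low values was 54600000 to 74600000 reads per library, with 16790 to 38730 inferred reads behind ITGB1 and 1306 to 2497 behind ITGB6.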

How the data were processed

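RNA was sequenced from 2 sh-MFAP2 and 2 control libraries of AGS cells, grouped by their labels. The authors deposited a gene table and a transcript table, whose values are taken as FPKM because the tables name no unit. The submitters' processing notes give hg38, and the aligner and the estimating program are not given in the sources used here. Transcripts were matched by identifier to GENCODE 29 on GRCh38 (176512 of 180500 found, and 95 of 96 member transcripts with the same length). Of the 10 transcripts listed under ITGB6, 3 carry another gene's name in GENCODE 29.

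Genes and transcripts whose mean reached 1 FPKM (9873 and 22312) entered limma 3.58.1 (R 4.3.3; lmFit, then eBayes with trend) as log2(FPKM + 1), with p-values adjusted by Benjamini-Hochberg. This understates changes of low genes. Shares and sums were compared by exact permutation tests. Depth was inferred from the steps between low values, of which 64.4% to 66.3% were whole within 0.05, so that no count test was used. Tested on simulated data of 9873 genes, the fit called 143 of 200 genes that had been shifted by 2 in log2, beside 13 false calls. Shifts as small as that of ITGB1, -0.60, were not simulated, so that how often these would be called is not known.

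The members and lists were chosen with earlier results of these data known. Named are the 8 members, ITGB1 transcripts of at least 1% of the ITGB1 sum, up to 3 main transcripts of the other tested members, the 3 genes nearest to ITGB1, the lowest and highest gene of each list, and MFAP2. ITGB1-205, ITGB1P1, ITGA5, ITGA6, FYN, FN1, ITGB8-204 and the overlapping genes were chosen after their values were seen. Alternatives were other filters, pseudocounts and scalings, the replicate number as a block, eBayes without trend, transcript sums, and leaving out each library. Tables and figures used Python 3.11.15, pandas 2.3.3, scipy 1.17.1 and matplotlib 3.10.9. The result of 1 marker gene is not reported here.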

Additional observations from a re-analysis of the deposited data

How the results depend on the processing

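ITGB1 stayed lower in each of 13 alternatives, from -0.67 to -0.53 with limma adjusted p from 0.1995 to 0.915, and adding ITGB1P1 was chosen after seeing the data. ITGB6 and ITGB4 kept their direction in the alternatives that could test them (-0.57 to -0.385 and 0.03 to 0.39). ITGB5 turned with a pseudocount of 0.1 (-0.000366), with transcript sums (-0.00656), without control replicate 1 (-0.00781) and without sh-MFAP2 replicate 1 (-0.23), within a range of -0.23 to 0.23 when single libraries were left out. ITGB5-201 likewise ranged from -0.24 to 0.24 and was -0.00323 without control replicate 1, ITGB5-207 from -0.00567 to 0.23 and ITGB4-201 from -0.21 to 0.062. No alternative with all 4 libraries made a call of a member. The unadjusted p under 0.05 alone gave 2 of 4 in place of 0, both lower, against 8.41% of all genes tested that were lower at that p. Same-numbered libraries did not deviate together (r = -0.0572 over 9873 genes), and under the replicate block ITGB1 kept -0.60 with a limma adjusted p of 0.614, so that it changed no call. The alpha chains had a median of -0.79 at a mean of at least 5 FPKM. The ILK complex had 0.000119 with no filter and -0.53 to -0.018 with single libraries left out. The kinases and adaptors had -0.16 with no filter, -0.19 with median of ratios and -0.24 to -0.085 with single libraries left out, and the ligands had -0.23 to 0.26. The cause was not tested for any of these. Allowing 1 mismatch matched the same 10 transcripts.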
